A study of Mus musculus with 16 samples.

Results

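Transcripts of 34 genes of glucose uptake, glycolysis, pyruvate oxidation, lactate transport and the pentose phosphate pathway were measured by RNA-seq in mouse macrophages left alone or given apoptotic cells. The 34 genes were taken by symbol from a list of the pathway, and each was found among the 55416 gene IDs of the count table. All 34 passed the filter on low counts that left 14168 genes for testing. The list also holds Sgk1, a serum- and glucocorticoid-inducible kinase that is not an enzyme of the pathway. The macrophages carried the cell line label Hoxb8 and a bone marrow origin; lines of this name are progenitors kept dividing by conditional Hoxb8 and allowed to mature in culture, and the labels do not say whether more than a single line or clone was used. The groups were macrophages alone and macrophages kept for 45, 90 and 180 min with apoptotic Jurkat cells, with 4 libraries in each of the 4 groups. Jurkat is a human leukaemia line of T cells. The labels name no genotype or drug that separates the groups, and the study's title and design concern efferocytosis, the uptake of dying cells.

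Glucose enters macrophages through carriers of the SLC2 family, is trapped by hexokinases and is split to pyruvate through glycolysis, whose pace is set largely at hexokinase, phosphofructokinase and pyruvate kinase. Pyruvate is either turned to lactate by lactate dehydrogenase and moved across the membrane by SLC16 carriers, or enters mitochondria through the pyruvate dehydrogenase complex. The pentose phosphate pathway draws off glucose 6-phosphate to make NADPH and ribose. Macrophages that engulf apoptotic cells are known for taking up more glucose through Slc2a1 and for releasing lactate through Slc16a1.

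Libraries held between 10.7 and 41.7 M counts, and group means were 24.7 ± 4.07 M for macrophages alone, 31.7 ± 7.27 M after 45 min, 15.7 ± 1.97 M after 90 min and 18.0 ± 6.40 M after 180 min (SD, n = 4 each). The 10 macrophage markers, which include Csf1r and Adgre1, were all detected and summed to 10690 to 11020 CPM (counts scaled to a common library size) in macrophages alone, 11640 to 12660 CPM at 45 min, 10450 to 10820 CPM at 90 min and 9718 to 11020 CPM at 180 min. Against macrophages alone, 4 of these 10 rose and 0 fell at 45 min (median log2 fold change 0.11, groups apart for 8), 2 rose and 5 fell at 90 min (median -0.07), and 1 rose and 5 fell at 180 min (median -0.08). The 10 T cell markers summed to 11.97 to 15.45 CPM in macrophages alone, 10.4 to 11.4 CPM at 45 min, 10.2 to 12.5 CPM at 90 min and 11.7 to 16.3 CPM at 180 min, and Cd3e, Cd3g and Cd2 were at 0 in every library. Of the 10, 3 passed the filter on low counts. Cd5 had 2.25, 1.93, 1.49 and 1.39 CPM at 180 min and 0.0361, 0.431, 0.604 and 0.751 CPM in macrophages alone, and rose at 180 min (log2 fold change 1.96 ± 0.59 SE, edgeR adjusted p = 0.00738). Cd28 fell at 90 min (log2 fold change -0.37 ± 0.13 SE, edgeR adjusted p = 0.0282), and Lat was called at no time. Mitochondrially encoded genes took 4.21 to 4.71% of counts in macrophages alone, 3.33 to 3.76% at 45 min, 5.12 to 6.40% at 90 min and 6.44 to 7.75% at 180 min. The part of these shifts in the results was not tested. How reads of the human cells were handled is not given in the sources used here, and the part of human reads counted on mouse genes was not tested. The time at which macrophages alone were harvested is not given either, so time in culture cannot be told apart from the exposure. Whether the libraries of each group are separate cultures is not stated, so each p-value is measured against a spread between libraries that may be technical. Library numbers 1 to 4 are names within a group. In bulk RNA, fewer cells with a transcript and less of it per cell cannot be told apart.

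The pathway showed many small changes and a few larger ones. At 45 min, 7 of the 34 genes rose and none fell relative to macrophages alone, where 10.8% of all tested genes changed, 4.69% rose and 6.11% fell (edgeR quasi-likelihood test, where a call is an adjusted p below 0.05). By the unadjusted p, 1 gene (Hk2) was below 0.05 and lower at 45 min, and DESeq2 also called 0 lower. In 2 of 24 alternative settings Hk2 was called lower at 45 min. These fitted only the 2 compared groups, or removed a trend of counts on gene length and GC content. At 90 min, 4 rose and 17 fell, where 21.1% of all genes changed and 9.97% fell. At 180 min, 4 rose and 14 fell, where 31.1% changed and 16% fell. The median log2 fold change of the 34 genes was 0.09 at 45 min, -0.14 at 90 min and -0.15 at 180 min, and that of all tested genes 0.00, 0.00 and 0.01. With a trend of counts on gene length and GC content removed, the medians of the 34 genes were 0.03, -0.19 and -0.20 in time order, and those of all tested genes 0.03, -0.04 and -0.04. The mean CPM lay above that of macrophages alone for 26 of the 34 genes at 45 min, 9 at 90 min and 8 at 180 min. Groups did not overlap for 9 of the 34 genes at 45 min, 18 at 90 min and 11 at 180 min, beside 16.9%, 21.2% and 28.6% of all genes. A joint test over the 3 times found a change in 26 of the 34 genes, where 44.6% of all genes passed. Most changes were small: among the 102 values of these genes against macrophages alone, only that of Sgk1 at 180 min and that of Aldoc at 90 min both passed the test and reached 1.5-fold.

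These genes were more abundant than most, and abundant genes are tested with less error. Among the 1912 tested genes at or above the median level of the 34, a comparison added after the values were seen, 30% changed at 45 min, 46.6% at 90 min and 64.4% at 180 min. Of the 17 members in that range, 6 changed at 45 min, 16 at 90 min and 11 at 180 min. The shares changed in either direction together were thus close to those of other abundant genes at 45 and 180 min. By direction, 6 members rose and 0 fell at 45 min, where 15.6% of the abundant genes rose and 14.3% fell. At 180 min 3 members rose and 8 fell, where 18.1% of the abundant genes rose and 46.3% fell. At 90 min, 12 of the 17 fell, where 30.7% of the abundant genes fell.

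The calls of the smallest changes at 45 min depended on how the libraries were scaled. When each library was corrected for a trend of its counts on GC content and gene length, genes called higher at 45 min numbered 1141, against 664 without that step, and genes called lower 513, against 865. The same step gave 1371 higher and 2158 lower at 90 min, against 1573 and 1413 without it, and 1806 higher and 3031 lower at 180 min, against 2139 and 2265 without it. Among the 34 genes that step gave 4 higher and 1 lower at 45 min, 4 higher and 18 lower at 90 min and 3 higher and 20 lower at 180 min. Of the 4 at 45 min, Slc2a1 and Pgk1 were called under either scaling. Pfkp (log2 fold change 0.17, edgeR adjusted p = 0.0134) and Slc16a1 (0.29, edgeR adjusted p = 0.0319) were called only with that step. The 1 lower was Hk2 (-0.19, edgeR adjusted p = 0.0161), also called only with it. Many members were therefore called lower at 90 and 180 min under either scaling. The same step also raised the number of all genes called lower at these times. Without it, 8 of the 17 abundant members fell at 180 min, beside 46.3% of the abundant genes. The calls of Aldoa, Tpi1, Gapdh, Pkm and Ldha at 45 min were not made after that step. Their log2 fold changes at 45 min after that step, each beside the value without it, were 0.12 and 0.17 for Tpi1, 0.12 and 0.15 for Ldha, 0.11 and 0.17 for Gapdh, 0.05 and 0.14 for Aldoa, and 0.02 and 0.14 for Pkm.

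**Figure D1:**
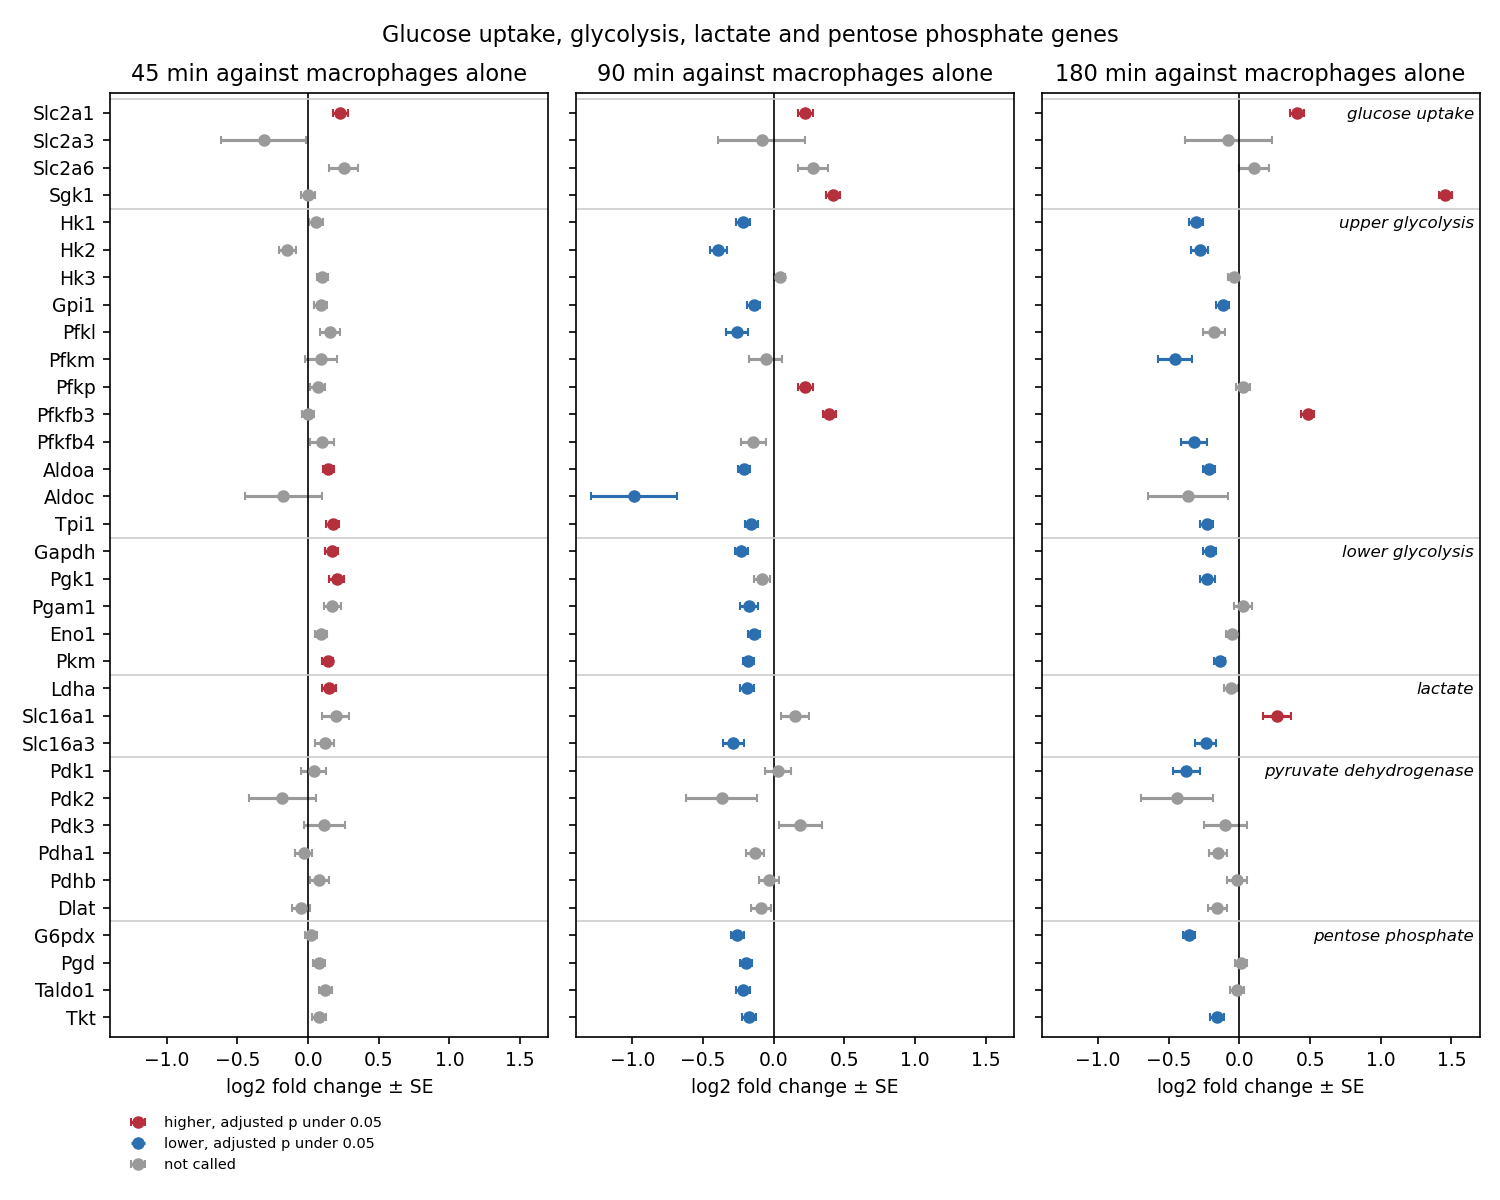
Log2 fold change of each of the 34 genes at 45, 90 and 180 min against macrophages alone (points, edgeR; bars, SE), grouped by role from glucose uptake at the top to the pentose phosphate pathway at the bottom, with called genes in colour. Points lean to the right at 45 min (7 higher, 0 lower) and to the left at 90 min (4 higher, 17 lower) and 180 min (4 higher, 14 lower), with Sgk1 at 180 min at 1.46.

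Promoters are shown for the 3 genes that rose at both 90 and 180 min (Slc2a1, Sgk1, Pfkfb3). Also shown is the pair of lactate carriers, called in opposite directions at 180 min (Slc16a1 higher, Slc16a3 lower), whose difference was not tested. The last is Pgk1, a glycolytic gene long used as a hypoxia-responsive example. Each line gives the 250 bases before an annotated RNA start, 5′ to 3′ on the gene's strand, from RefSeq's GRCm38.p6 windows. The windows are chr4:119108495-119108744 (plus strand) for Slc2a1, chr10:21994416-21994665 (plus) for Sgk1, chr2:11502091-11502340 (minus) for Pfkfb3, chr3:104638414-104638663 (plus) for Slc16a1, chr11:120948817-120949066 (plus) for Slc16a3 and chrX:106186850-106187099 (plus) for Pgk1. Sgk1 has 6 windows and Pfkfb3 has 2, and the window furthest downstream on the gene's strand is printed. Capitals mark ACGTG and GCGTG, the cores that the hypoxia-inducible factor can bind, on either strand, and CACGTG, the E-box core of MYC and related factors, overlaps ACGTG.
Slc2a1: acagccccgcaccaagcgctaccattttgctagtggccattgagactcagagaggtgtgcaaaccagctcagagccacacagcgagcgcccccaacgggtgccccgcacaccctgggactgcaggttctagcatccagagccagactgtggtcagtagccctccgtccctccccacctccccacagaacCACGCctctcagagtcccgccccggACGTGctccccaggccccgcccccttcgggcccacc
Sgk1: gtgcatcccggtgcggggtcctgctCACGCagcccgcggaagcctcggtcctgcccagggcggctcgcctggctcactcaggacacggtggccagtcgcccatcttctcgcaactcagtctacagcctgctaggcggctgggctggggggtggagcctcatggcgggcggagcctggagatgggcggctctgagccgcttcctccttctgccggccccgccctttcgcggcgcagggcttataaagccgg
Pfkfb3: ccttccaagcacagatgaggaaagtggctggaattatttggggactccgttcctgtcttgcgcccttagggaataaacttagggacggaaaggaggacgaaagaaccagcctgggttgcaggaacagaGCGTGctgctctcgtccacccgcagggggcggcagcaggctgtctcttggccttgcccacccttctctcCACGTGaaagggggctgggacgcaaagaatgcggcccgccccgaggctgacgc
Slc16a1: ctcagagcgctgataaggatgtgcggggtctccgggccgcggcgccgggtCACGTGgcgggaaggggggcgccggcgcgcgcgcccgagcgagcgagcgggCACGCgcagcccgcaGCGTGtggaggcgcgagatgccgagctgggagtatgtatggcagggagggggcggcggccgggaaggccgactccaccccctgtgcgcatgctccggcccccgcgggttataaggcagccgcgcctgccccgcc
Slc16a3: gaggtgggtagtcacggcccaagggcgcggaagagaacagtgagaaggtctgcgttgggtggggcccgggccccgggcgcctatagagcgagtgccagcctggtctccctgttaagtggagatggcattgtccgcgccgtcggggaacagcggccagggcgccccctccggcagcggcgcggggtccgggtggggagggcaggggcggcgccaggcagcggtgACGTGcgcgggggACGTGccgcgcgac
Pgk1: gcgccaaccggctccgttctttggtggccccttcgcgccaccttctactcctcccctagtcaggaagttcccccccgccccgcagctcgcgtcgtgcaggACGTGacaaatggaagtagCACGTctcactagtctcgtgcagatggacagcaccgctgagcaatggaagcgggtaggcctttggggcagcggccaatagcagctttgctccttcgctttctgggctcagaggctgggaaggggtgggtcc

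Slc2a1 held 1 match to each of ACGTG and GCGTG, Sgk1 a single GCGTG, Pfkfb3 and Slc16a1 a CACGTG each beside 1 and 2 matches to GCGTG, and Slc16a3 and Pgk1 each 2 matches to ACGTG and none to GCGTG. RefSeq windows were found for 33 of the 34 genes. ACGTG was in 35.8% of the 53 windows of these genes, in 21.7% of windows of tested genes and in 16.6% of all 32851 windows. GCGTG was in 52.8%, 44.1% and 28.2% of the same 3 sets, and CACGTG in 11.3%, 8.38% and 6.02%. The windows of these genes had a mean GC content of 58.7%, and those of tested genes 59.5%. Slc16a3 and Pgk1 fell at 180 min, Slc2a1, Sgk1, Pfkfb3 and Slc16a1 rose, and a link between matches and direction was not tested. A match is a description of letters, not of a site in use.

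Of the glucose uptake genes, Slc2a1, the main basal glucose carrier of macrophages, was higher at every time. Its values were 103, 98.7, 114 and 101 CPM in macrophages alone and 119.7, 119, 123 and 127 CPM at 45 min. Slc2a1 then had 132, 121, 115 and 119 CPM at 90 min and 148, 134, 137 and 135 CPM at 180 min. No library at any of the 3 times was below the highest library of macrophages alone. The log2 fold changes were 0.23 ± 0.05 (SE, edgeR adjusted p = 0.00139) at 45 min, 0.22 ± 0.05 (SE, edgeR adjusted p = 0.00118) at 90 min and 0.41 ± 0.05 (SE, edgeR adjusted p = 3.73e-09) at 180 min. The 90 min and 45 min groups overlapped and differed by -0.01 ± 0.05 (SE, 95% interval -0.11 to 0.10). The value at 180 min exceeded that at 45 min by 0.18 ± 0.05 (SE, edgeR adjusted p = 0.00463) and that at 90 min by 0.19 ± 0.05 (SE, edgeR adjusted p = 0.0119). The last of these was not called without 180 min library 1 (adjusted p = 0.0506) or without 90 min library 3 (adjusted p = 0.0541).

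Sgk1, a kinase known for raising the amount of channels and nutrient carriers at the cell surface, had the largest change among the 34 genes in these comparisons. It measured 107, 129.5, 122 and 125 CPM in macrophages alone and 121, 119.6, 118 and 124 CPM at 45 min. Sgk1 then had 168, 157, 161 and 159 CPM at 90 min and 341, 339, 318 and 328 CPM at 180 min. At 45 min its libraries lay within the range of macrophages alone, with a difference of 0.00 ± 0.05 (SE, 95% interval -0.10 to 0.10). The 90 min libraries all lay above those of macrophages alone, at 0.42 ± 0.05 (SE, edgeR adjusted p = 1.12e-09). The 180 min libraries all lay above those at 90 min, at a log2 fold change of 1.46 ± 0.05 (SE, edgeR adjusted p = 1.19e-32) against macrophages alone, which is 2.75-fold, and 1.04 ± 0.05 (SE, edgeR adjusted p = 2.09e-25) against 90 min.

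Slc2a6, a lysosomal hexose carrier of inflammatory macrophages, measured 23.3, 20.5, 20.1 and 20.5 CPM at 45 min and 17.2, 15.4, 20.1 and 18.1 CPM in macrophages alone. The groups overlapped and its log2 fold changes of 0.25 ± 0.10 (SE, edgeR adjusted p = 0.108) at 45 min, 0.28 ± 0.11 (SE, edgeR adjusted p = 0.055) at 90 min and 0.10 ± 0.11 (SE, edgeR adjusted p = 0.509) at 180 min did not pass the test. Slc2a3, a high-affinity carrier best known from neurons and leukocytes, stayed between 1.36 and 3.75 CPM in all libraries. Its 95% interval at 180 min, -0.69 to 0.53 on the log2 scale, is wide enough to hold a change of the size of that of Slc2a1.

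**Figure D2:**
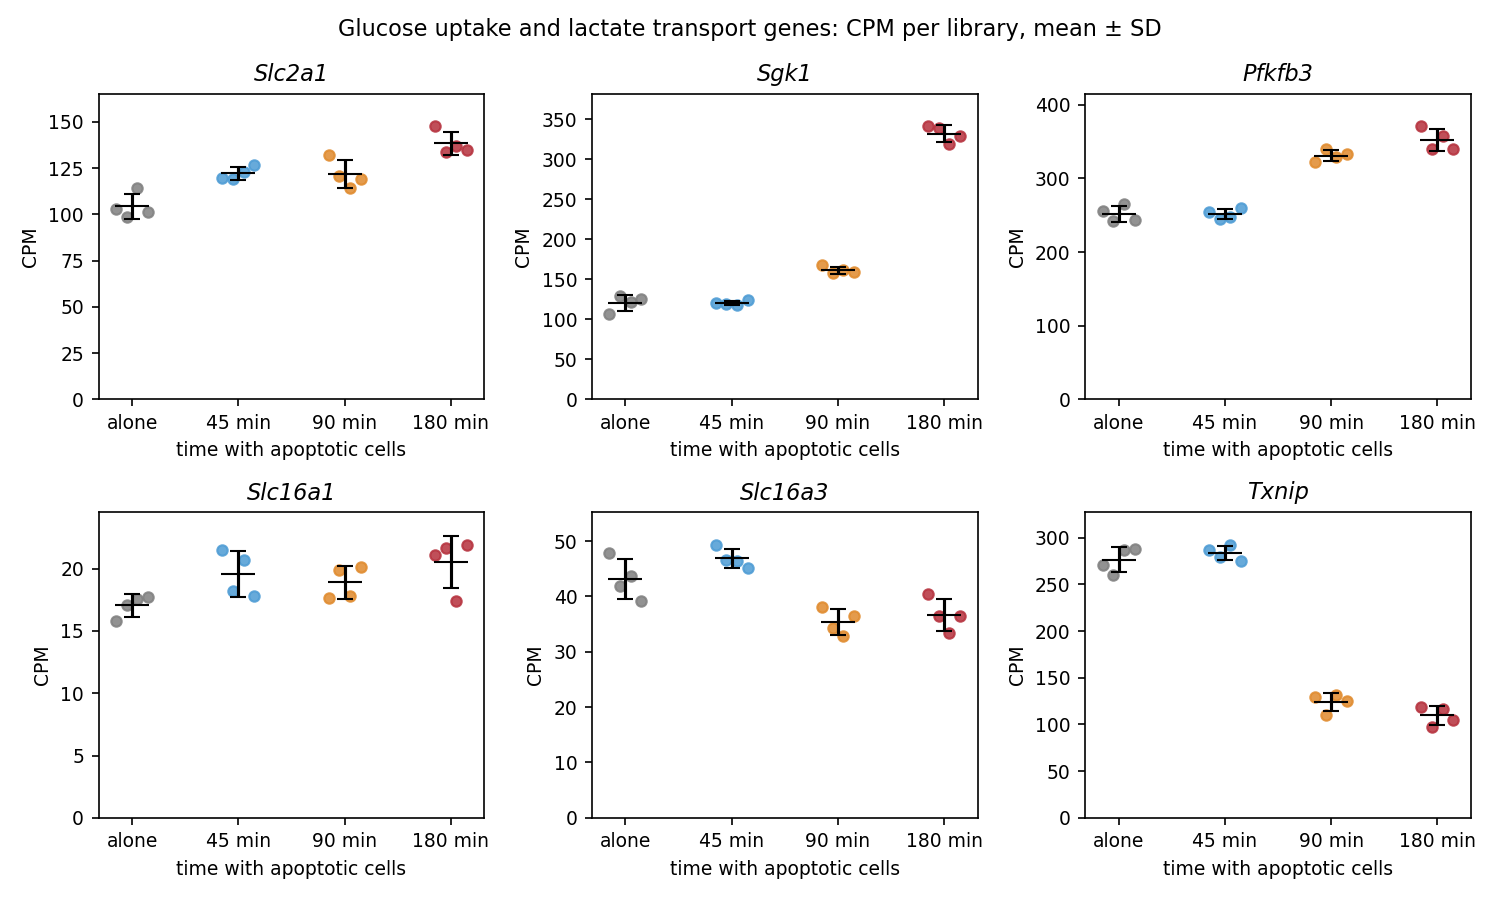
CPM of Slc2a1, Sgk1, Pfkfb3, Slc16a1, Slc16a3 and Txnip in each of the 16 libraries (points) for macrophages alone and 45, 90 and 180 min with apoptotic cells, with group mean and SD (bars). Slc2a1 is above macrophages alone at every time, Sgk1 and Pfkfb3 are at the level of macrophages alone at 45 min and higher at 90 and 180 min, and Txnip is lower at 90 and 180 min.

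The hexokinases, which trap glucose as glucose 6-phosphate, were not called alike, and the differences between them were not tested. Hk1, the broadly expressed form that sits on mitochondria, measured 137, 132, 135 and 122 CPM in macrophages alone and 139, 139, 133 and 136 CPM at 45 min. Hk1 then had 112, 122, 108 and 111 CPM at 90 min and 109.6, 103, 107 and 106 CPM at 180 min. Its libraries at 90 and at 180 min all lay below those of macrophages alone, with -0.22 ± 0.05 (SE, edgeR adjusted p = 0.000794) and -0.30 ± 0.05 (SE, edgeR adjusted p = 1.39e-06). Hk2, the inducible form, measured 129, 113, 123 and 114 CPM in macrophages alone and 118, 108, 95.8 and 110.3 CPM at 45 min. Hk2 then had 78.3, 100.03, 93.6 and 92.7 CPM at 90 min and 101, 103, 100.01 and 91.6 CPM at 180 min. It too was lower in every library at 90 min, at -0.39 ± 0.06 (SE, edgeR adjusted p = 9.01e-07), and at 180 min, at -0.28 ± 0.06 (SE, edgeR adjusted p = 0.000151). For Hk2 at 45 min the value was -0.15 (edgeR adjusted p = 0.101). Hk3, the form typical of myeloid cells, averaged 663 ± 22.2 CPM at 180 min and 681 ± 32.5 CPM in macrophages alone (SD, n = 4 each). Its log2 fold changes were 0.10 ± 0.04 (SE, edgeR adjusted p = 0.0989) at 45 min, 0.04 ± 0.04 (SE, edgeR adjusted p = 0.491) at 90 min and -0.04 ± 0.04 (SE, edgeR adjusted p = 0.496) at 180 min. None passed the test, although Hk3 fell at 180 min against 45 min (log2 fold change -0.14 ± 0.04 SE, edgeR adjusted p = 0.0038). After removal of the length and GC trend, Hk3 was called lower at 180 min against macrophages alone (log2 fold change -0.15, edgeR adjusted p = 0.000595). Scaled for gene length, Hk3 made up 86.1 ± 0.364% of hexokinase transcript at 180 min and 83.9 ± 0.499% in macrophages alone (SD, n = 4 each), and Hk2 made up 7.91 ± 0.334% and 9.10 ± 0.434%. The length used here and for the families below is the union of all annotated exons of a gene. Shares, and the order of genes within a family, depend on it.

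Gpi1, the isomerase that makes fructose 6-phosphate, averaged 230.4 ± 11.7 CPM at 90 min, 234 ± 2.39 CPM at 180 min and 254 ± 10.8 CPM in macrophages alone (SD, n = 4 each). Both falls were small, at -0.14 ± 0.04 (SE, edgeR adjusted p = 0.0162) and -0.12 ± 0.04 (SE, edgeR adjusted p = 0.0344), and the call at 180 min was lost in 14 of 24 alternative settings, 11 of which left out a single library, with adjusted p between 0.0511 and 0.110.

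Phosphofructokinase commits the sugar to glycolysis, and its 3 subunit genes were not called alike, with no test of the differences between them. Pfkp, the platelet-type subunit, measured 114, 105, 116 and 105 CPM in macrophages alone and 115, 118, 116 and 113 CPM at 45 min. Pfkp then had 137, 128, 125 and 123 CPM at 90 min and 111, 104, 122 and 110.0 CPM at 180 min. The 90 min libraries all lay above those of macrophages alone, at 0.22 ± 0.05 (SE, edgeR adjusted p = 0.00106), and above those at 180 min, which were lower than at 90 min (log2 fold change -0.20 ± 0.05 SE, edgeR adjusted p = 0.00663). At 180 min the difference from macrophages alone was 0.02 ± 0.05 (SE, edgeR adjusted p = 0.774). The drop after 90 min was not called without 180 min library 2 (adjusted p = 0.0636) or without 90 min library 1 (adjusted p = 0.0599). Pfkl, the liver-type subunit, measured 38.3, 38.4, 33.3 and 31.8 CPM at 90 min and 49.6, 38.9, 43.5 and 37.8 CPM in macrophages alone, with some overlap. It fell by 0.26 on the log2 scale at 90 min (SE 0.08, edgeR adjusted p = 0.00966), a call that was not made when library 1 of macrophages alone (adjusted p = 0.0874) or 90 min library 4 (adjusted p = 0.0623) was left out. For Pfkl at 180 min the log2 fold change was -0.18 (edgeR adjusted p = 0.0647). It was -0.25 (edgeR adjusted p = 0.00444) after removal of the length and GC trend.

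Pfkm, the muscle-type subunit, measured 9.88, 8.09, 9.52 and 12.3 CPM at 180 min and 16.5, 12.3, 13.5 and 13.1 CPM in macrophages alone. Library 4 at 180 min touched the range of macrophages alone and the other 3 lay below it, at -0.46 ± 0.12 (SE, edgeR adjusted p = 0.00194). As shares of length-scaled phosphofructokinase transcript, Pfkp made up 50.7 ± 0.979% at 90 min and 44.0 ± 2.14% in macrophages alone, Pfkl 28.1 ± 1.51% and 33.9 ± 1.27%, and Pfkm 21.2 ± 1.17% and 22.1 ± 1.25% (SD, n = 4 each). By 180 min, Pfkm had 17.5 ± 2.44% and Pfkp 49.2 ± 2.07%. The libraries of 90 min and of macrophages alone did not overlap in the share of Pfkp or of Pfkl.

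Pfkfb3 and Pfkfb4 encode bifunctional enzymes that make and break the allosteric activator of phosphofructokinase, and Pfkfb3 favours its synthesis. Pfkfb3 measured 255, 243, 266 and 244 CPM in macrophages alone and 254, 245, 247 and 260.3 CPM at 45 min. Pfkfb3 then had 322, 339.8, 329 and 333 CPM at 90 min and 371, 339, 358 and 339.9 CPM at 180 min. The 45 min libraries overlapped those of macrophages alone, and all 8 libraries of 90 and 180 min lay above both. The log2 fold changes were 0.00 ± 0.04 (SE, 95% interval -0.09 to 0.08) at 45 min, 0.39 ± 0.04 (SE, edgeR adjusted p = 1.57e-10) at 90 min and 0.48 ± 0.04 (SE, edgeR adjusted p = 4.27e-14) at 180 min. Pfkfb4 measured 22.8, 21.5, 18.2 and 18.1 CPM at 180 min and 26.7, 24.5, 25.98 and 22.5 CPM in macrophages alone, with library 1 at 180 min inside the range of macrophages alone. It fell at 180 min (log2 fold change -0.32 ± 0.09 SE, edgeR adjusted p = 0.00421). Pfkfb3 made up 91.9 ± 0.795% of the length-scaled transcript of this pair at 180 min and 86.7 ± 0.597% in macrophages alone (SD, n = 4 each), with no overlap between libraries.

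Aldolase and triose phosphate isomerase finish the first stage of glycolysis by making the triose phosphates. Aldoa, the main aldolase here, measured 982, 933, 1010.0 and 956 CPM in macrophages alone and 1091, 1034, 1054 and 1108 CPM at 45 min. Aldoa then had 835, 871, 855 and 797 CPM at 90 min and 912, 806, 812 and 816 CPM at 180 min. All 45 min libraries lay above and all 90 and 180 min libraries below those of macrophages alone. Its log2 fold changes were 0.14 ± 0.04 (SE, edgeR adjusted p = 0.0123), -0.21 ± 0.04 (SE, edgeR adjusted p = 6.09e-05) and -0.21 ± 0.04 (SE, edgeR adjusted p = 1.95e-05) in time order. With the length and GC trend removed, the value at 45 min was 0.05 (adjusted p = 0.494). Tpi1 measured 263, 276, 281 and 272 CPM in macrophages alone and 304, 286, 320.0 and 322 CPM at 45 min. Tpi1 then had 259.5, 254, 245 and 221 CPM at 90 min and 250.1, 221, 234 and 224 CPM at 180 min, and its groups were separated in the same way. The log2 fold changes of Tpi1 were 0.17 ± 0.05 (SE, edgeR adjusted p = 0.00952), -0.16 ± 0.05 (SE, edgeR adjusted p = 0.0129) and -0.23 ± 0.05 (SE, edgeR adjusted p = 9.59e-05) in time order. At 45 min it was not called after removal of the length and GC trend (adjusted p = 0.0690), and at 90 min not without 90 min library 4 (adjusted p = 0.111) or, leaving out library 3 of macrophages alone, at an adjusted p of 0.0520.

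Aldoc, the brain-type aldolase, was scarce, with 1.61, 1.28, 1.49 and 1.04 CPM at 90 min and 2.31, 1.88, 3.28 and 3.27 CPM in macrophages alone. Its groups did not overlap at 90 min, when it fell by 0.99 on the log2 scale (SE 0.30, edgeR adjusted p = 0.0126). Without library 3 of macrophages alone the fall was 0.87 and its adjusted p 0.0603. Aldoa made up over 99% of length-scaled aldolase transcript in every library, from 99.7 to 99.9%.

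In the lower, energy-yielding stage, the 5 genes from Gapdh to Pkm gave 3 rises at 45 min, 4 falls at 90 min and 3 falls at 180 min. Of all genes, 4.69% rose at 45 min, 9.97% fell at 90 min and 16% fell at 180 min. The shares of the 1912 abundant genes were 15.6%, 30.7% and 46.3% in the same order. Gapdh, the dehydrogenase that makes NADH, measured 483, 425, 464 and 442 CPM in macrophages alone and 539, 469, 508 and 522 CPM at 45 min. Gapdh then had 379.6, 401, 386 and 381 CPM at 90 min and 425, 382, 372 and 391 CPM at 180 min. The 45 min libraries overlapped those of macrophages alone in library 2, while the 90 and 180 min libraries all lay below. The log2 fold changes were 0.17 ± 0.04 (SE, edgeR adjusted p = 0.00828) at 45 min, -0.23 ± 0.05 (SE, edgeR adjusted p = 8.88e-05) at 90 min and -0.21 ± 0.05 (SE, edgeR adjusted p = 0.000169) at 180 min. Pgk1, the first ATP-making kinase of glycolysis, measured 98.6, 110.2, 114 and 106 CPM in macrophages alone and 126, 120.1, 127 and 119.7 CPM at 45 min. Pgk1 then had 99.5, 96.8, 107 and 101 CPM at 90 min and 99.7, 87.5, 90.4 and 88.9 CPM at 180 min. The 45 min libraries all lay above those of macrophages alone, at 0.20 ± 0.05 (SE, edgeR adjusted p = 0.00604), and those at 180 min lay low but overlapped through library 1, at -0.23 ± 0.05 (SE, edgeR adjusted p = 0.000669). At 90 min its value of -0.08 ± 0.05 (SE, edgeR adjusted p = 0.302) did not pass the test.

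Pkm, pyruvate kinase, was the most abundant of the 34 genes by CPM in every group, with 1829.9, 1654, 1824 and 1708 CPM in macrophages alone and 2021, 1868, 1869 and 1962 CPM at 45 min. Pkm then had 1474, 1633, 1566 and 1516 CPM at 90 min and 1737, 1524, 1516 and 1586 CPM at 180 min. The log2 fold changes of Pkm were 0.14 ± 0.04 (SE, edgeR adjusted p = 0.0163), -0.18 ± 0.04 (SE, edgeR adjusted p = 0.00052) and -0.14 ± 0.04 (SE, edgeR adjusted p = 0.00472) in time order. The groups did not overlap at 45 or 90 min and overlapped at 180 min through library 1 of that group. The value at 45 min was 0.02 after removal of the length and GC trend (adjusted p = 0.823), and leaving out library 2 of macrophages alone ended the call (adjusted p = 0.0602). Counts per gene do not separate the muscle-type splice forms of Pkm.

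Eno1, enolase, averaged 313 ± 13.4 CPM at 90 min and 345 ± 13.8 CPM in macrophages alone, and Pgam1, the mutase before it, 65.6 ± 4.94 CPM at 90 min and 74.2 ± 2.65 CPM in macrophages alone (SD, n = 4 each). Both were lower at 90 min, at -0.14 ± 0.04 (SE, edgeR adjusted p = 0.0158) for Eno1 and -0.18 ± 0.06 (SE, edgeR adjusted p = 0.0336) for Pgam1. Neither fall was called when library 3 of macrophages alone was left out (adjusted p = 0.0925 for Eno1 and 0.105 for Pgam1) or without 90 min library 4 (0.0700 and 0.0701), and that of Pgam1 also not without library 1 of macrophages alone (0.0552) or of 90 min (0.117). At 180 min the values were -0.05 ± 0.04 (SE, edgeR adjusted p = 0.43) and 0.03 ± 0.06 (SE, edgeR adjusted p = 0.803). Eno1 was called lower at 180 min after removal of the length and GC trend (-0.15, edgeR adjusted p = 0.00256). Gapdh, Pgk1, Pgam1, Tpi1, Aldoa, Eno1 and Ldha have processed copies in the mouse genome, and how reads shared with such copies were counted is not given in the sources used here, so their counts are uncertain to that extent.

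**Figure D3:**
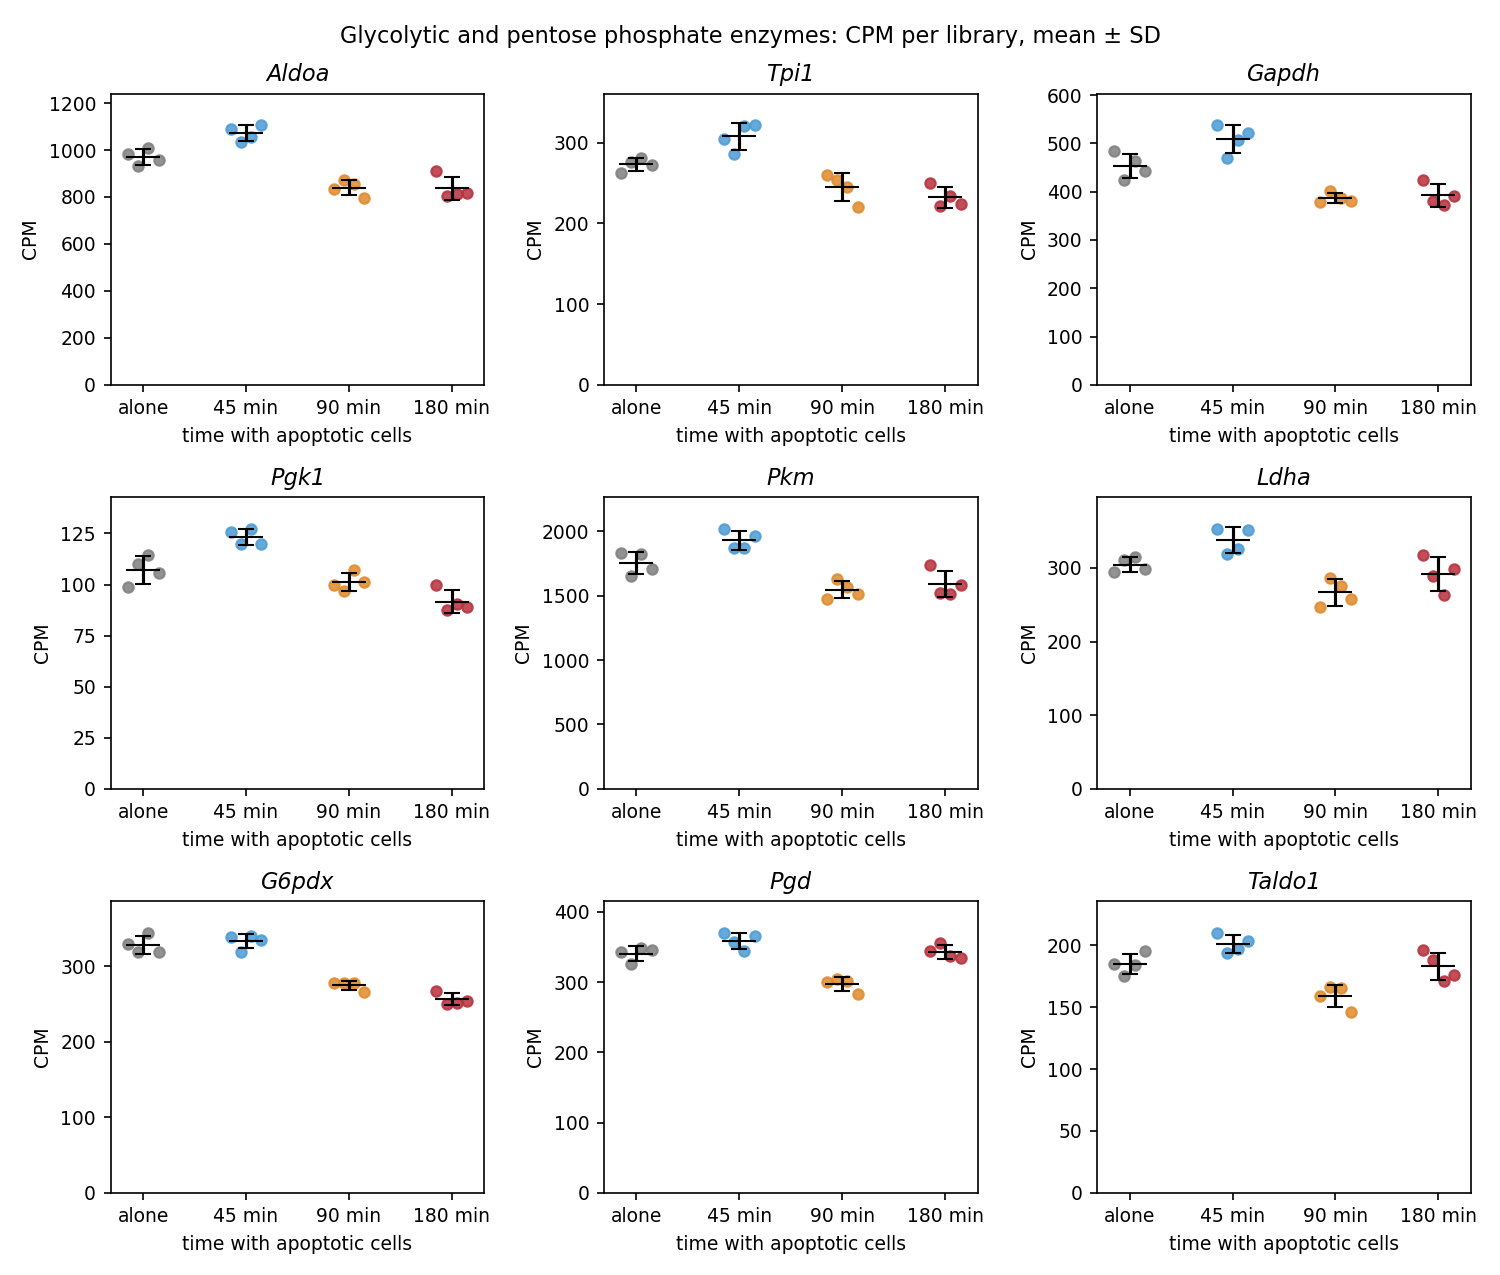
CPM in each library (points) with group mean and SD (bars) for 6 glycolytic and lactate genes and 3 pentose phosphate genes, in macrophages alone and at 45, 90 and 180 min with apoptotic cells. The means of the 6 glycolytic and lactate genes are highest at 45 min (among their rises at that time, only that of Pgk1 was also called after removal of the length and GC trend), G6pdx is lower at 90 and 180 min, and Pgd and Taldo1 are lower at 90 min and overlap macrophages alone at 180 min.

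Lactate genes were not called alike at 90 and 180 min, and the differences between them were not tested. Ldha, the dehydrogenase subunit that turns pyruvate to lactate, measured 294, 311, 315 and 298 CPM in macrophages alone and 353, 319, 326 and 352 CPM at 45 min. Ldha then had 247, 287, 275 and 258 CPM at 90 min and 318, 289, 263 and 298 CPM at 180 min. The 45 min libraries all lay above those of macrophages alone, the 90 min libraries all below, and the 180 min libraries spread across them. For Ldha the log2 fold changes were 0.15 ± 0.05 (SE, edgeR adjusted p = 0.0358), -0.19 ± 0.05 (SE, edgeR adjusted p = 0.00278) and -0.06 ± 0.05 (SE, edgeR adjusted p = 0.387) in time order. The value at 180 min was -0.14 after removal of the length and GC trend (edgeR adjusted p = 0.0202). The call at 45 min was lost in 5 of 24 alternatives, among them without libraries 1 or 4 of either group (adjusted p between 0.0624 and 0.0955).

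Slc16a1, a lactate and pyruvate carrier known for lactate release by efferocytic macrophages, measured 15.8, 17.04, 17.6 and 17.8 CPM in macrophages alone and 21.5, 18.2, 20.7 and 17.8 CPM at 45 min. Slc16a1 then had 17.7, 19.9, 17.8 and 20.1 CPM at 90 min and 21.1, 21.7, 17.4 and 21.9 CPM at 180 min. All 45 min libraries lay above those of macrophages alone, library 4 by less than the digits shown, whereas at 180 min 3 libraries lay above and library 3 within. Its rise passed the test only at 180 min, at 0.26 ± 0.10 (SE, edgeR adjusted p = 0.0331), beside 0.20 ± 0.10 (SE, edgeR adjusted p = 0.202) at 45 min and 0.15 ± 0.10 (SE, edgeR adjusted p = 0.299) at 90 min. After removal of the length and GC trend, Slc16a1 was instead called at 45 min (0.29, edgeR adjusted p = 0.0319) and not at 180 min (0.20, edgeR adjusted p = 0.101). The 180 min call was lost in 7 of 24 alternatives, with adjusted p between 0.0533 and 0.115, including without library 1, 2 or 4 of that group (0.0629, 0.0911 and 0.102) and without library 1 or 2 of macrophages alone (0.115 and 0.0533). In the joint test over the 3 times Slc16a1 was not called (edgeR adjusted p = 0.111). No pair of the 3 times passed the test, and the change between 45 and 180 min was 0.07 ± 0.10 (SE, 95% interval -0.13 to 0.26).

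Slc16a3, the carrier usually tied to lactate export by highly glycolytic cells, measured 47.9, 41.9, 43.7 and 39.1 CPM in macrophages alone and 49.3, 46.6, 46.4 and 45.1 CPM at 45 min. Slc16a3 then had 38.1, 34.3, 32.9 and 36.4 CPM at 90 min and 40.5, 36.5, 33.4 and 36.4 CPM at 180 min. The 90 min libraries all lay below those of macrophages alone, at -0.29 ± 0.07 (SE, edgeR adjusted p = 0.00288), and those of 180 min overlapped them through library 1, at -0.24 ± 0.07 (SE, edgeR adjusted p = 0.00876). The 180 min call ended when library 1 of macrophages alone was left out (adjusted p = 0.0637) and without 180 min library 3 (adjusted p = 0.0571). As a share of the length-scaled transcript of both carriers, Slc16a1 made up 40.1 ± 1.93% at 180 min, 39.1 ± 2.30% at 90 min and 32.3 ± 2.89% in macrophages alone (SD, n = 4 each). The libraries of 90 min and of 180 min all had a larger share of Slc16a1 than any library of macrophages alone, whose highest share was 35.3%.

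**Figure D4:**
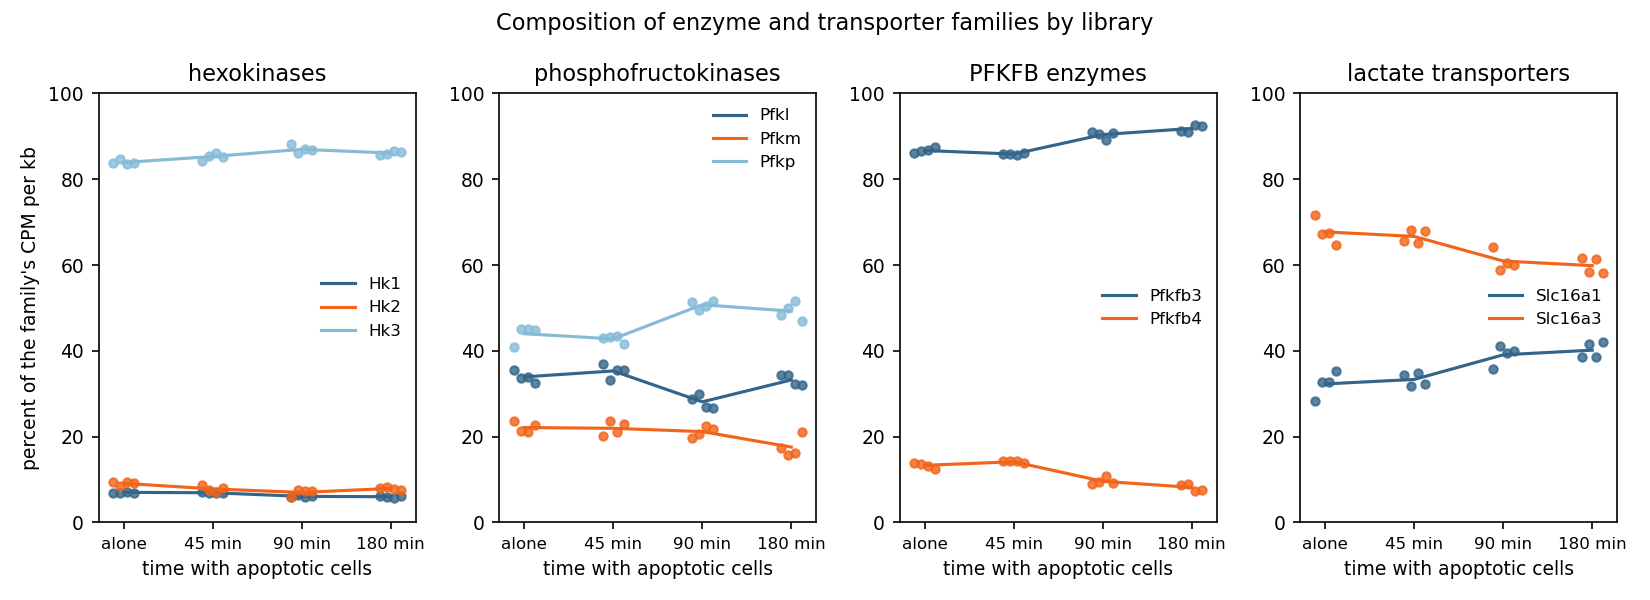
Share of each family's length-scaled transcript (percent of the family's CPM per kb of exon) held by each gene in every library (points) and as the group mean (lines), for hexokinases, phosphofructokinases, PFKFB enzymes and lactate carriers in macrophages alone and at 45, 90 and 180 min. Hk3 holds 86.1% at 180 min and 83.9% in macrophages alone, Pfkp 50.7% at 90 min and 44.0% in macrophages alone, and Slc16a1 40.1% at 180 min and 32.3% in macrophages alone.

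Of the 6 genes of the pyruvate dehydrogenase step, 0 changed at 45 and 90 min and 1 at 180 min against macrophages alone. Of all genes, 10.8%, 21.1% and 31.1% changed in time order. Pdk1, a kinase that switches the complex off, measured 21.4, 22.6, 25.6 and 27.4 CPM in macrophages alone and 28.3, 23.3, 22.5 and 25.3 CPM at 45 min. Pdk1 then had 23.7, 27.4, 24.4 and 23.3 CPM at 90 min and 17.99, 20.3, 18.01 and 18.5 CPM at 180 min. The 180 min libraries all lay below those of every other group, at -0.38 ± 0.09 (SE, edgeR adjusted p = 0.00119) against macrophages alone and -0.41 ± 0.10 (SE, edgeR adjusted p = 0.0017) against 90 min. Its values at 45 and 90 min, 0.04 ± 0.09 and 0.03 ± 0.09 (SE), had 95% intervals of -0.14 to 0.22 and -0.15 to 0.22. The kinases Pdk2 and Pdk3 were scarce, between 1.83 and 9.93 CPM over all libraries, and at 180 min gave -0.44 ± 0.25 (SE, edgeR adjusted p = 0.188) and -0.10 ± 0.15 (SE, edgeR adjusted p = 0.678). The catalytic subunits Pdha1 and Pdhb gave -0.15 ± 0.06 (SE, edgeR adjusted p = 0.052) and -0.02 ± 0.07 (SE, edgeR adjusted p = 0.872) at 180 min, and Dlat, the acetyltransferase core, -0.16 ± 0.07 (SE, edgeR adjusted p = 0.0721). Pdha1 and Dlat passed the test at 180 min with the length and GC trend removed, at -0.22 (adjusted p = 0.00388) and -0.21 (adjusted p = 0.0109).

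All 4 pentose phosphate genes fell at 90 min, with no overlap between the groups, and 2 of them at 180 min. Of all genes, 9.97% fell at 90 min and 16% at 180 min, and 21.2% had groups that did not overlap at 90 min. Among the 1912 abundant genes, 30.7% fell at 90 min and 46.3% at 180 min. G6pdx, the entry enzyme and a main source of NADPH, measured 330.2, 318, 345 and 319 CPM in macrophages alone and 339, 319, 340.4 and 335 CPM at 45 min. G6pdx then had 277, 278, 277 and 266 CPM at 90 min and 268, 251, 252 and 254 CPM at 180 min. The 45 min libraries overlapped those of macrophages alone, and the 8 later libraries lay below both. Its log2 fold changes were 0.02 ± 0.04 (SE, edgeR adjusted p = 0.813) at 45 min, -0.26 ± 0.04 (SE, edgeR adjusted p = 4.45e-06) at 90 min and -0.36 ± 0.04 (SE, edgeR adjusted p = 4.89e-10) at 180 min. Pgd, the other NADPH-making dehydrogenase of the pathway, measured 343, 325, 348 and 346 CPM in macrophages alone and 370.4, 357, 344 and 365 CPM at 45 min. Pgd then had 301, 304, 302 and 283 CPM at 90 min and 345, 356, 338 and 334 CPM at 180 min. It fell at 90 min by 0.19 on the log2 scale (SE 0.04, edgeR adjusted p = 0.000383), and its 180 min libraries lay above all those at 90 min, at 0.21 ± 0.04 (SE, edgeR adjusted p = 0.000285), and around those of macrophages alone, at 0.01 ± 0.04 (SE, 95% interval -0.07 to 0.10).

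Taldo1, transaldolase of the non-oxidative branch, like Pgd fell at 90 min and rose at 180 min against 90 min, with 185, 175, 184 and 195 CPM in macrophages alone and 210.1, 194, 197 and 204 CPM at 45 min. Taldo1 then had 159, 166, 165 and 146 CPM at 90 min and 196, 188, 171 and 176 CPM at 180 min. Its values were -0.22 ± 0.05 (SE, edgeR adjusted p = 0.000762) at 90 min against macrophages alone and 0.20 ± 0.05 (SE, edgeR adjusted p = 0.00352) at 180 min against 90 min, and at 180 min it differed from macrophages alone by -0.02 ± 0.05 (SE, 95% interval -0.12 to 0.08). Tkt, transketolase, measured 153, 153, 152 and 135 CPM at 90 min, 161, 148, 144 and 147 CPM at 180 min and 178, 161, 167 and 164 CPM in macrophages alone. It fell at both times, at -0.18 ± 0.05 (SE, edgeR adjusted p = 0.00771) and -0.16 ± 0.05 (SE, edgeR adjusted p = 0.0112). The call at 90 min was not made without 90 min library 4 (adjusted p = 0.0655), nor that at 180 min when library 1 of macrophages alone (adjusted p = 0.0610) or 180 min library 4 (adjusted p = 0.0518) was left out. At 180 min against 90 min the log2 fold change of G6pdx was -0.10 ± 0.04 (SE, edgeR adjusted p = 0.137), beside the rise of Pgd, and the difference between the genes was not tested.

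The times were also compared with each other. At 90 min against 45 min, 3 of the 34 genes rose (Sgk1, Pfkfb3 and Pfkp) and 19 fell, where 28.1% of all genes changed and 13.3% fell. The median log2 fold change was -0.24, and 21 genes had groups that did not overlap, beside 25.1% of all genes. All 5 lower glycolytic genes and all 4 pentose phosphate genes were among the 19, and none of these 9 had overlapping groups. Gapdh gave -0.40 ± 0.05 (SE, edgeR adjusted p = 3.7e-10), Pkm -0.32 ± 0.04 (SE, edgeR adjusted p = 6.81e-09), Taldo1 -0.34 ± 0.05 (SE, edgeR adjusted p = 2.19e-07) and Slc16a3 -0.40 ± 0.07 (SE, edgeR adjusted p = 1.87e-05). Pfkp rose by 0.16 ± 0.05 (SE, edgeR adjusted p = 0.0197), a call lost in 8 of 24 alternatives with adjusted p between 0.0541 and 0.195, among them without 45 min library 1, 3 or 4 or 90 min library 1 or 2. The fall of Aldoc was lost in 5 of 24 (adjusted p between 0.0548 and 0.139), among them without 45 min library 1 or 90 min library 2 or 4. That of Pfkfb4 was lost in 6 of 24 (adjusted p between 0.0519 and 0.0949), among them without library 1 or 4 of either group. Among the 1912 abundant genes, 52.8% changed and 34.2% fell, where 15 of the 17 members in that range changed and 12 fell. Of the 10 macrophage markers, 1 rose and 8 fell (median log2 fold change -0.18), and their part in the falls of the 34 genes was not tested. With the length and GC trend removed, all genes gave 1426 higher and 3105 lower, against 2096 and 1888 without that step.

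At 180 min against 90 min, 5 genes rose (Slc2a1, Sgk1, Pgam1, Pgd and Taldo1) and 3 fell (Pfkm, Pfkp and Pdk1), where 11.4% of all genes changed, 4.45% rose and 6.97% fell. Among the 1912 abundant genes 31.6% changed, as did 5 of the 17 members in that range, a share near that background when directions are pooled. By direction, 4 of these members rose and 1 fell, where 9.05% of the abundant genes rose and 22.6% fell. The median log2 fold change of the 34 genes was 0.02, and 8 of them had groups that did not overlap, beside 12.3% of all genes. Pgam1 gave 0.20 ± 0.06 (SE, edgeR adjusted p = 0.0245) and Pfkm -0.40 ± 0.12 (SE, edgeR adjusted p = 0.0227). Without 180 min library 1, 3 genes rose, and Pgam1 (adjusted p = 0.108) and Slc2a1 were not called. Without 180 min library 2, only Pdk1 fell among the 34, with adjusted p = 0.117 for Pfkm. The fall of Pfkm was also lost without 180 min library 1 (adjusted p = 0.0529) or 3 (0.0863) or 90 min library 3 (0.0670), and the rise of Pgam1 without 180 min library 2 (adjusted p = 0.0668) or 90 min library 1 (0.111). The fall of Pfkp was also lost without 90 min library 1 (adjusted p = 0.0599). At 180 min against 45 min, 3 genes rose (Slc2a1, Sgk1 and Pfkfb3) and 18 fell, where 36.4% of all genes changed and 18% fell. Among the abundant genes 67.1% changed and 48.2% fell, where 15 of the 17 members changed and 12 fell. Of the 10 macrophage markers, 0 rose and 8 fell (median log2 fold change -0.20). Groups did not overlap for 21 genes, beside 32.3% of all genes. Pgk1 at -0.43 ± 0.05 (SE, edgeR adjusted p = 1.7e-09), Tpi1 at -0.41 ± 0.05 (SE, edgeR adjusted p = 3.28e-10) and Hk1 at -0.36 ± 0.05 (SE, edgeR adjusted p = 2.46e-08) were among the 18. The fall of Taldo1 (log2 fold change -0.14 ± 0.05 SE, edgeR adjusted p = 0.0194) was lost without 180 min library 3 (adjusted p = 0.0880) or 4 (0.0556) or 45 min library 1 (0.0562). With the length and GC trend removed, all genes gave 1912 higher and 3856 lower in that comparison, against 2596 and 2556. The 3 comparisons of the times with each other share libraries with those against macrophages alone.

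Scaled by exon length, the 34 genes spanned a wide range in macrophages alone, from 351 ± 17.4 CPM per kb for Pkm and 333 ± 11.4 for Aldoa (SD, n = 4) to 0.823 ± 0.216 for Aldoc and 0.329 ± 0.130 for Slc2a3. The SD ranges of Pkm and Aldoa overlapped, and Hk3 came next at 185 ± 8.83 CPM per kb. Those of Gapdh at 110 ± 6.14 and G6pdx at 107 ± 3.97 CPM per kb overlapped too, as did those of Slc16a1 at 3.85 ± 0.204 and Pfkm at 4.14 ± 0.549. Each pair was measured in the same libraries, and the differences within libraries were not tested. Exon length here is the union of all annotated exons of a gene, which can exceed the length of the RNA in use. The order of the genes by this measure depends on that divisor. Pfkfb3 was at place 14 of the 34, Slc2a1 at 15 and Sgk1 at 16. By 180 min Sgk1 had moved to place 9, with 67.6 ± 2.13 CPM per kb, between G6pdx and Eno1, while Slc2a1 was at place 14.

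**Figure D5:**
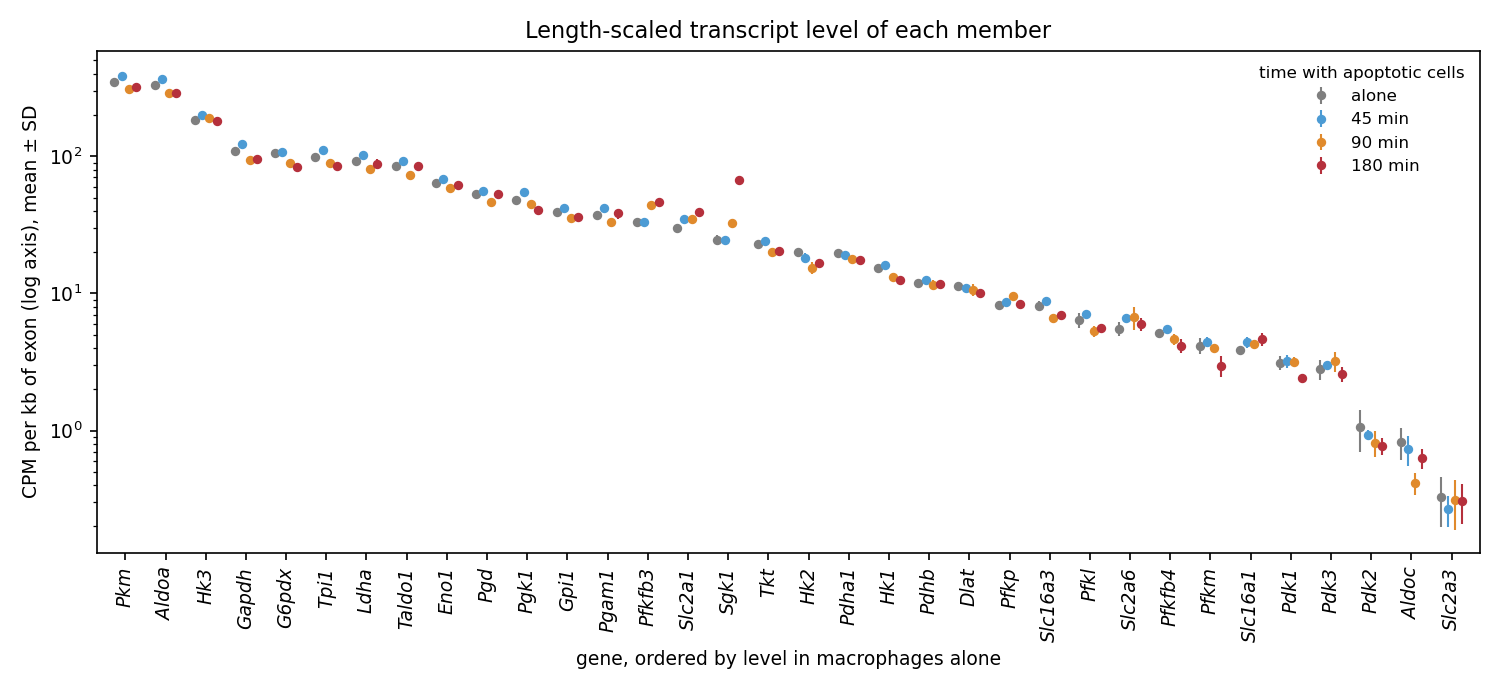
Length-scaled level of each of the 34 genes (CPM per kb of exon, log axis; points, group mean; bars, SD over 4 libraries) in macrophages alone and at 45, 90 and 180 min, ordered by level in macrophages alone. Levels run from 351 CPM per kb for Pkm to 0.329 for Slc2a3 in macrophages alone, and Sgk1 at 180 min stands out from its neighbours. Exon length is the union of all annotated exons, and the order of the genes depends on it.

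Single libraries leaned the same way across many of these genes. At 45 min, library 1 was the highest of its group for 20 of the 34 genes, and at 180 min library 1 was highest for 20 as well. The 34 genes took 0.721 to 0.763% of counts in macrophages alone, 0.778 to 0.813% at 45 min, 0.665 to 0.699% at 90 min and 0.707 to 0.768% at 180 min, and the highest value at 180 min was that of library 1. Without that library, 3 genes rose and 13 fell at 180 min against macrophages alone. Thinning every library to the smallest total ended the calls at 180 min of Gpi1 (adjusted p = 0.0943), Slc16a3 (0.0684) and Tkt (0.0560) and that of Pfkl at 90 min (0.0569).

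A further list of 100 genes of the same pathways held 73 that could be tested. Of these 73, 2 rose and 4 fell at 45 min, 7 rose and 11 fell at 90 min, and 11 rose and 17 fell at 180 min, against macrophages alone. These are 8.22%, 24.7% and 38.4% of the list, beside 10.8%, 21.1% and 31.1% of all genes. Txnip, an arrestin-like protein that removes glucose carriers from the cell surface, fell most among them at 90 and 180 min. It measured 271, 260.2, 287 and 288 CPM in macrophages alone and 287, 279.7, 293 and 275 CPM at 45 min. Txnip then had 129, 109.9, 131 and 125 CPM at 90 min and 119, 97.4, 117 and 105 CPM at 180 min, and both late groups lay wholly below the others. The changes of Txnip were 0.04 ± 0.05 (SE, edgeR adjusted p = 0.751) at 45 min, -1.16 ± 0.05 (SE, edgeR adjusted p = 1.04e-25) at 90 min and -1.33 ± 0.05 (SE, edgeR adjusted p = 4.24e-29) at 180 min. Mlxip, a glucose-sensing transcription factor that drives Txnip, averaged 89.4 ± 5.14 CPM at 180 min and 119 ± 4.96 CPM in macrophages alone (SD, n = 4 each). It fell at 45 min (log2 fold change -0.18 ± 0.05 SE, edgeR adjusted p = 0.0135) and at 180 min (log2 fold change -0.41 ± 0.05 SE, edgeR adjusted p = 3.88e-09).

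Among regulators, Hif1a, the oxygen-sensitive factor that drives many glycolytic genes, measured 223, 208, 202 and 226 CPM at 180 min and 143, 152, 163 and 159 CPM in macrophages alone, with no overlap and 0.48 ± 0.05 (SE, edgeR adjusted p = 7.14e-12). Nedd4l, a ubiquitin ligase that SGK1 phosphorylates, rose at 90 min (log2 fold change 0.43 ± 0.06 SE, edgeR adjusted p = 2.2e-08) and 180 min (log2 fold change 0.46 ± 0.06 SE, edgeR adjusted p = 1.18e-09). Sgk3, a kinase related to Sgk1, went the other way at 180 min, with 48.7, 47.2, 47.7 and 53.5 CPM against 69.8, 82.4, 72.8 and 88.4 CPM in macrophages alone and -0.66 ± 0.07 (SE, edgeR adjusted p = 8.39e-13). Egln2, an oxygen-sensing hydroxylase, rose at 45 min (log2 fold change 0.21 ± 0.06 SE, edgeR adjusted p = 0.022).

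Slc16a6, a member of the lactate carrier family that is known in zebrafish liver for ketone body transport, measured 62.2, 61.5, 60.04 and 60.3 CPM in macrophages alone and 66.7, 65.4, 62.9 and 58.8 CPM at 45 min. Slc16a6 then had 78.9, 83.3, 78.9 and 79.4 CPM at 90 min and 108, 99.7, 98.2 and 103 CPM at 180 min. The 90 min libraries all lay above those of macrophages alone, at 0.39 ± 0.06 (SE, edgeR adjusted p = 1.76e-07), and the 180 min libraries above those at 90 min, at 0.74 ± 0.06 (SE, edgeR adjusted p = 3.54e-17) against macrophages alone. Pdp1, the phosphatase that switches pyruvate dehydrogenase back on, rose at 90 min (log2 fold change 0.44 ± 0.06 SE, edgeR adjusted p = 5.53e-08), and Pdpr, its regulatory subunit, fell at 45 min (log2 fold change -0.31 ± 0.08 SE, edgeR adjusted p = 0.00705). In glycogen breakdown, Pygb, the brain-type phosphorylase, fell at 90 min (log2 fold change -0.34 ± 0.06 SE, edgeR adjusted p = 5.4e-06). Gfpt1, the entry enzyme of hexosamine synthesis, fell at 45 min (log2 fold change -0.20 ± 0.06 SE, edgeR adjusted p = 0.0263), and Dera, an aldolase of deoxyribose phosphate, rose (log2 fold change 0.22 ± 0.06 SE, edgeR adjusted p = 0.00511).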

How the data were processed

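Total RNA was depleted of ribosomal RNA and made into directional libraries, per the labels' protocols. The authors deposited raw counts per gene in a single table for the 16 libraries, not normalized. STAR 2.7.9a, SAMtools, HTSeq and the build mm39 are named per the submitters' processing notes. Not given in the sources used here are the strand setting, the annotation and how shared reads were handled. Column names give each library's group and no replicate number.

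Symbols and exon lengths came from GENCODE M21, an annotation of the build before mm39, which named 52083 of 55416 IDs. The exon length of a gene is the union of all its annotated exons. Aldoa has a second ID there, with 117 counts in all, which was not used. edgeR 4.0.16 (R 4.3.3, limma 3.58.1) filtered genes (minimum count 10, minimum total 15), scaled libraries by the trimmed mean of M values and fitted all 16 libraries with group as the only term. The quasi-likelihood F test was adjusted by Benjamini-Hochberg over 14168 genes. CPM are counts over scaled library sizes. SE is the coefficient's size divided by the square root of F. The biological coefficient of variation was 7.81%. Libraries of a group differed by more than counting noise (chi-square per degree of freedom 3.9 to 9.88), so none was treated as a repeat deposit of another; this does not show separate cultures. The scripts were tested on simulated data. DESeq2 1.42.0 and other settings were tried as alternatives.

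The 34 genes and all lists were chosen with earlier results of these data known. Any of the 34 could be named; of the other 100 pathway genes, up to 6 with the smallest p in each comparison with macrophages alone, and Txnip. Promoter windows came from RefSeq (GRCm38.p6), matched by symbol. A gene of the wider pathway lists that met the naming rule is not reported here.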

Additional observations from a re-analysis of the deposited data

Results flagged for a closer look

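In 7 of 136 groups of 4 libraries, over the 34 genes, a single library lay far from the other 3 by Dixon's criterion, and chance gives about 1 in 20. The 90 min library 4 was low for G6pdx, at 265.6 CPM with the others at 277.3 to 278.1 CPM, for Pgd, at 283.0 CPM with the others at 300.6 to 304.2 CPM, and for Tkt, at 135.2 CPM with the others at 152.1 to 153.0 CPM. The 180 min library 1 was high for Aldoa, at 911.6 CPM with the others at 805.6 to 815.9 CPM, and for G6pdx, at 267.9 CPM with the others at 250.7 to 253.6 CPM. The 180 min library 4 was high for Pdha1, at 72.5 CPM, and 45 min library 1 for Slc2a6, at 23.3 CPM.

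Some genes rose at 45 min and fell later, each against macrophages alone, and the test of the difference between the times was passed. The difference at 90 min against 45 min was -0.35 on the log2 scale for Aldoa, -0.40 for Gapdh, -0.34 for Ldha, -0.32 for Pkm and -0.33 for Tpi1. At 180 min against 45 min it was -0.36 for Aldoa, -0.38 for Gapdh, -0.43 for Pgk1, -0.28 for Pkm and -0.41 for Tpi1. The rises of Aldoa, Gapdh, Ldha, Pkm and Tpi1 at 45 min were not called once the length and GC trend had been removed, at log2 fold changes of 0.05, 0.11, 0.12, 0.02 and 0.12 in that order.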

How the results depend on the processing

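Each result was recomputed under 24 alternatives, of which leaving out mitochondrially encoded genes was chosen after seeing the data. Over the 34 genes and 6 comparisons no call changed sign, and 4727 values stayed on their side of the threshold, 84 lost a call and 85 gained one; the cause was not tested. With the length and GC trend removed, the members called at 45 min were 4 higher (7 without this step) and 1 lower (0), and 5 were lower at 180 min against 90 min (3). All genes called in that setting, which moved by over 1.5 times, were 1141 higher and 513 lower at 45 min, 2158 lower at 90 min, 3105 lower at 90 min against 45 min and 3856 lower at 180 min against 45 min. With the 2 compared groups fitted alone, 1 member was lower at 45 min. Leaving out a library in turn gave, for members, 6 to 10 higher and 0 lower at 45 min, 4 to 5 higher and 12 to 17 lower at 90 min, 3 to 4 and 12 to 15 at 180 min, 2 to 3 and 17 to 19 at 90 against 45 min, 3 to 6 and 1 to 3 at 180 against 90 min, and 3 and 17 to 20 at 180 against 45 min. For all genes it gave 534 to 905 higher and 541 to 890 lower at 45 min. No paired analysis was possible because the table's columns carry no replicate numbers. Genes under about 10 CPM (Slc2a3, Aldoc, Pdk2, Pdk3) have SEs of 0.15 to 0.32, so small changes were not detectable there at this depth.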
